A study of Mus musculus with 10 samples.

Results

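Ion pumps and chloride cotransporters were followed through 7 genes, picked by symbol, out of 25232 genes in the table. They encode the sodium-potassium pump subunits *Atp1b1* and *Atp1b2*, the plasma membrane calcium pumps *Atp2b2* and *Atp2b3*, the sodium-calcium exchanger *Slc8a1*, and the chloride cotransporters *Slc12a2* and *Slc12a5*. All 7 were found, and all 7 had a base mean above 0.

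RNA of the spinal cord of female C57BL/6 mice was sequenced at 90 days of age, in 5 wild type (WT) mice and 5 mice with the genotype sod1 g93a. The latter carry many copies of a human *SOD1* transgene with a mutation of familial ALS, and the WT mice were their littermates. Every level is the base mean, that is, the authors' mean over all 10 libraries, WT and transgenic together, of counts divided by a size factor for each library. Such a mean describes the tissue of both genotypes at once, so no difference between the genotypes and no spread between mice is given. In bulk tissue, more cells of a type and more RNA per cell cannot be told apart.

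The sodium-potassium pump exports sodium and imports potassium at the cost of ATP, and the resting potential of neurons and the uptake of transmitter by glia depend on these gradients. Calcium leaves the cell through calcium pumps of the plasma membrane and through exchangers driven by sodium. Chloride is loaded by the cotransporter NKCC1, the product of *Slc12a2*, and removed by KCC2, the product of *Slc12a5*. In the mature spinal cord the low chloride kept by KCC2 lets GABA and glycine inhibit neurons.

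The base means of all genes summed to 22158933 normalized counts, the mean depth of a library after scaling. The lowest base means above 0 fell on 10 recurring values, as 1 read in 1 library would give, and these returned 10 size factors between 0.840 and 1.15. The deepest library was thus 1.37 times the shallowest on this scale, and no library could be tied to a mouse. A base mean could then be read as a number of reads over all libraries, with a 95% interval (exact Poisson) that covers counting error only. Genes were taken as detected above 0.357, the highest base mean that 3 reads could give. Markers of the cells of the cord were present, with base means between 3498 (*Rbfox3*) and 59050 (*Snap25*) for 5 neuronal genes, between 1944 and 56289 for 6 astrocyte genes, and between 5348 and 319615 for 6 oligodendrocyte genes. The 5 motor neuron markers lay between 37.3 and 1424, and the 5 Hox genes of the lumbar cord between 39.2 (*Hoxa11*) and 489 (*Hoxc10*). Among 4 forebrain genes, *Neurod6* had a base mean of 78.9, and the other 3 were at most 3.604. The 4 markers of skeletal muscle lay between 77.3 and 251, and the 3 of dorsal root ganglia between 8.80 and 86.9. Of 3 red cell markers, *Hbb-bs* and *Hba-a1* were listed at 0 and *Alas2* at 137. Only uniquely mapped reads were counted, and what this did to *Hbb-bs* and *Hba-a1* was not tested. Their 0 is thus not read as absence of red cells. The part of the cell types with markers here in the levels of the 7 genes was not tested.

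All 7 genes were abundant by base mean, and together they held 0.550% of all normalized counts. By base mean, they lay between percentile 95.1 (*Slc8a1*) and percentile 99.9 (*Atp1b1*) of the 20973 genes with a base mean above 0. Longer transcripts give more reads, so the genes were ordered by base mean per kilobase (kb) of the exons of their curated transcripts. In that order *Atp1b1* was first and *Slc8a1* last, 68.4-fold apart. Both kept their places under every length used, but the distance fell to 30.3-fold per kb of coding sequence and to 9.48-fold by base mean. Here and below, the level per kb of coding sequence is the whole base mean over the coding length. Reads of coding sequence were not counted apart from those of untranslated exon. The steps between neighbours were largest from *Atp1b2* to *Slc12a5* (4.54-fold) and from *Slc12a2* to *Slc8a1* (4.11-fold), and smallest from *Atp1b1* to *Atp1b2* (1.18-fold). These steps depended on the length. *Slc12a2* stood only 1.16-fold above *Slc8a1* per kb of coding sequence and 1.44-fold by base mean, while *Atp1b2* stood 8.23-fold and 2.14-fold above *Slc12a5*. Per kb of curated exon, no neighbours had overlapping counting intervals. The spread between mice could not be set against these steps.

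**Figure D1:**
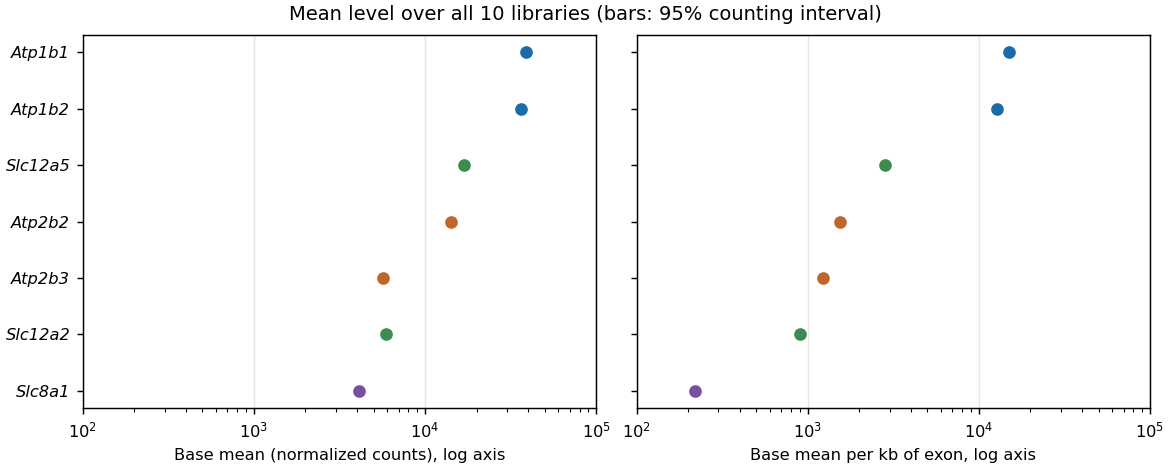
Levels of the 7 genes over all 10 libraries: the left panel plots the base mean in normalized counts and the right panel the base mean per kb of exon, both on log axes, with 95% counting intervals that are narrower than the points. *Atp1b1* and *Atp1b2* lie above the others in both panels, and *Slc8a1* lies last, further apart per kb (219.8) than by base mean (4089).

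The beta subunits of the sodium-potassium pump were the most abundant of the 7. The beta subunit carries the catalytic alpha subunit to the membrane, and the product of *Atp1b2* is also known as an adhesion molecule of astrocytes. *Atp1b1* had a base mean of 38774, which stands for between 325720 and 446489 reads and has a counting interval of 38641 to 38907. Per kb its level was 15029, number 17 of 19924 genes with a base mean above 0 and a curated length. *Atp1b2* had a base mean of 36309 (counting interval 36181 to 36439) and a level of 12776 per kb, number 34. Per kb of curated exon, the ratio of *Atp1b1* to *Atp1b2* was thus 1.18 (counting interval 1.17 to 1.18). This ratio depended on the length used, and was 1.02 per kb of coding sequence and 1.42 per kb of all transcripts.

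*Atp1b1* lies on chromosome 1 of GRCm38, the build also known as mm10, from 164437109 to 164458355 on the minus strand, with 6 exons. At its 3′ end, between 164437109 and 164437725, it shares 575 bases of exon with *Nme7* on the other strand, which is 22.3% of the *Atp1b1* exon length. The libraries were stranded, but the strand setting of the counting was not given in the sources used here, so reads there could have been left out or given to either gene. *Nme7* had a base mean of 1955, and at its level of 1109 per kb the shared stretch would hold 1.64% of the *Atp1b1* base mean. With the shared bases left out of the length, which was tried only once the values were known, the level of *Atp1b1* would be 19338 per kb. This value keeps the whole base mean, so it holds only if no read of the shared stretch was counted for *Atp1b1*. In that case the ratio of *Atp1b1* to *Atp1b2* would be higher than given per kb of curated exon. So would its share of its family and its distance from *Slc8a1*. *Atp1b2* lies on chromosome 11 from 69599736 to 69605942 on the minus strand, with 7 exons, and shared no exon base with another gene.

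Within the family of beta subunits, *Atp1b1* and *Atp1b2* together held 93.3% of the summed level per kb. *Atp1b1* held 50.4% and *Atp1b2* 42.9%, while *Atp1b3* held 6.71% at a base mean of 3990.4. *Atp1b4*, a muscle gene, had a base mean of 0.179 and was not detectable at this depth. Of the 7 FXYD genes, which encode small regulators of the pump, *Fxyd1* (1505 per kb) and *Fxyd7* (1474 per kb) were highest and *Fxyd4* lowest (9.02 per kb). *Fxyd7* was above *Fxyd1* per kb of all transcripts (64.8% against 20.8% of the family) and of coding sequence (33.7% against 29.6%).

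**Figure D2:**
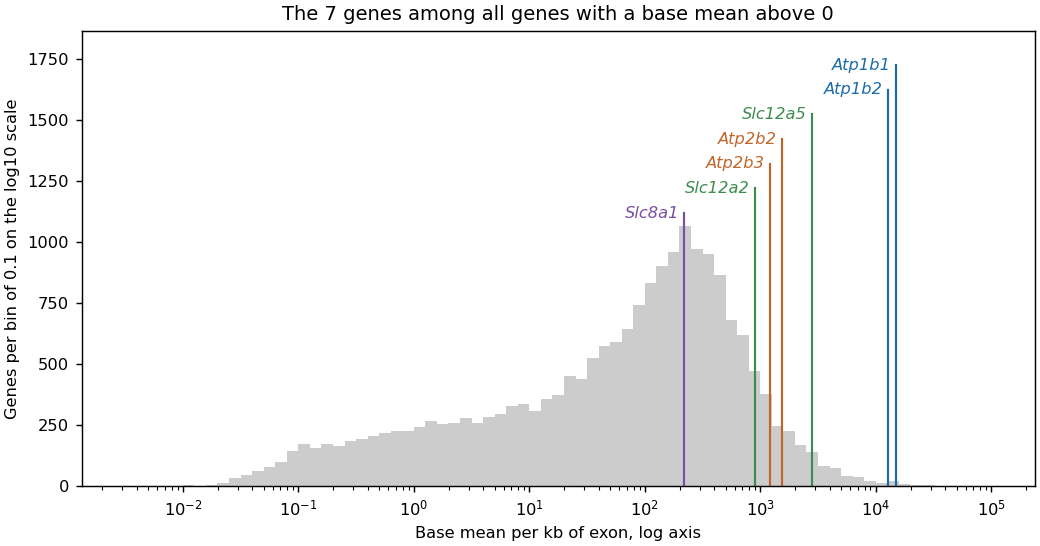
Histogram of the base mean per kb of exon, on a log axis, for the 19924 genes with a base mean above 0 and a curated length; the vertical lines mark the 7 genes. *Slc8a1*, at percentile 66.8, stands near the peak of the histogram, and the other 6 stand on its upper slope, from percentile 91.7 (*Slc12a2*) upwards.

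The plasma membrane calcium pumps *Atp2b2* and *Atp2b3* were expressed at levels per kb that depended on the length for their order. Both encode isoforms that are prominent in neurons. *Atp2b2* had a base mean of 14109 (counting interval 14029 to 14190) and 1539.6 per kb. *Atp2b3* had a base mean of 5681 (counting interval 5630 to 5732) and 1217 per kb. By base mean, *Atp2b2* was thus 2.48 times *Atp2b3*, and per kb 1.26 times (counting interval 1.25 to 1.28). With the exons of all annotated transcripts as the length, the ratio fell below 1, to 0.949.

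The transcripts of both genes differ in their untranslated part. The longest curated *Atp2b2* transcript has 8877 bases, of which 4709 (53.0%) are 3′ untranslated, while that of *Atp2b3* has 4483 bases with 454 (10.1%) in the 3′ untranslated region. *Atp2b2* lies on chromosome 6 from 113743831 to 114042613 on the minus strand, and *Atp2b3* on the X chromosome from 73503086 to 73571005 on the plus strand. Neither shared exon bases with another gene.

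In their family of 4 pumps, *Atp2b2* held 42.6% and *Atp2b3* 33.6% of the summed level per kb, so both held 76.2% together. *Atp2b1*, the widely expressed isoform, followed with 573 per kb, and *Atp2b4* with 288 per kb. Among genes of proteins that bind these pumps, *Calm2*, a calmodulin gene, had 13502 per kb, the highest of 4, and *Nptn*, the gene of the pump's partner neuroplastin, had 4707, the lowest. These places also turned with the length, since per kb of coding sequence *Calm3* was highest, with 53.6% of the summed level of the 4, and *Bsg* lowest, with 6.31%. The calcium pumps of internal membranes were led by *Atp2a2*, the pump of the endoplasmic reticulum, at 3779 per kb, and *Atp2c2* was lowest at 3.16 per kb. The 4 plasma membrane pumps summed to 3618 per kb, 0.813 times the 5 internal pumps, and the order turned by base mean alone (1.03 times).

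*Slc8a1*, the gene of the sodium-calcium exchanger NCX1, had the lowest level of the 7, with a base mean of 4089 (counting interval 4046 to 4132) and 219.8 per kb. It is also the gene whose level depended most on the length. Its curated exons cover 18599 bases, and in the longest curated transcript 15589 of 18464 bases (84.4%) are 3′ untranslated. Per kb of coding sequence (2910.0 bases) its level was 1405, against 1552 for *Atp2b3* and 1627 for *Slc12a2*. That measure sets all reads of the gene against the coding length alone, so a long untranslated part that is read raises it. *Slc8a1* lies on chromosome 17 from 81373105 to 81738377 on the minus strand, and 1.59% of its exon length is shared with an antisense gene. How far the long 3′ end is used in this tissue cannot be read from 1 value a gene.

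Among the sodium-calcium exchangers, *Slc8a3* had the highest level per kb, 322, and held 43.4% of the family, while *Slc8a1* held 29.7%. The order turned per kb of coding sequence, where *Slc8a1* held 59.9%, and by base mean, where it held 62.4% and *Slc8a3*, at a base mean of 1631, held 24.9%. *Slc8a2* had 108 per kb, and *Slc8b1*, the exchanger of mitochondria, had 91.7 per kb. Of the 5 exchangers that also carry potassium, *Slc24a2* was highest with 1425 per kb, and *Slc24a1*, the isoform of rod photoreceptors, was lowest with 0.871 per kb. The plasma membrane calcium pumps summed to 4.88 times the level per kb of the sodium-calcium exchangers, and to 3.09 times per kb of coding sequence. The sum of the sodium-calcium exchangers, 741 per kb, includes *Slc8b1* of mitochondria. It leaves out the exchangers that also carry potassium, which summed to 2402 per kb, against 3618 for the plasma membrane pumps.

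**Figure D3:**
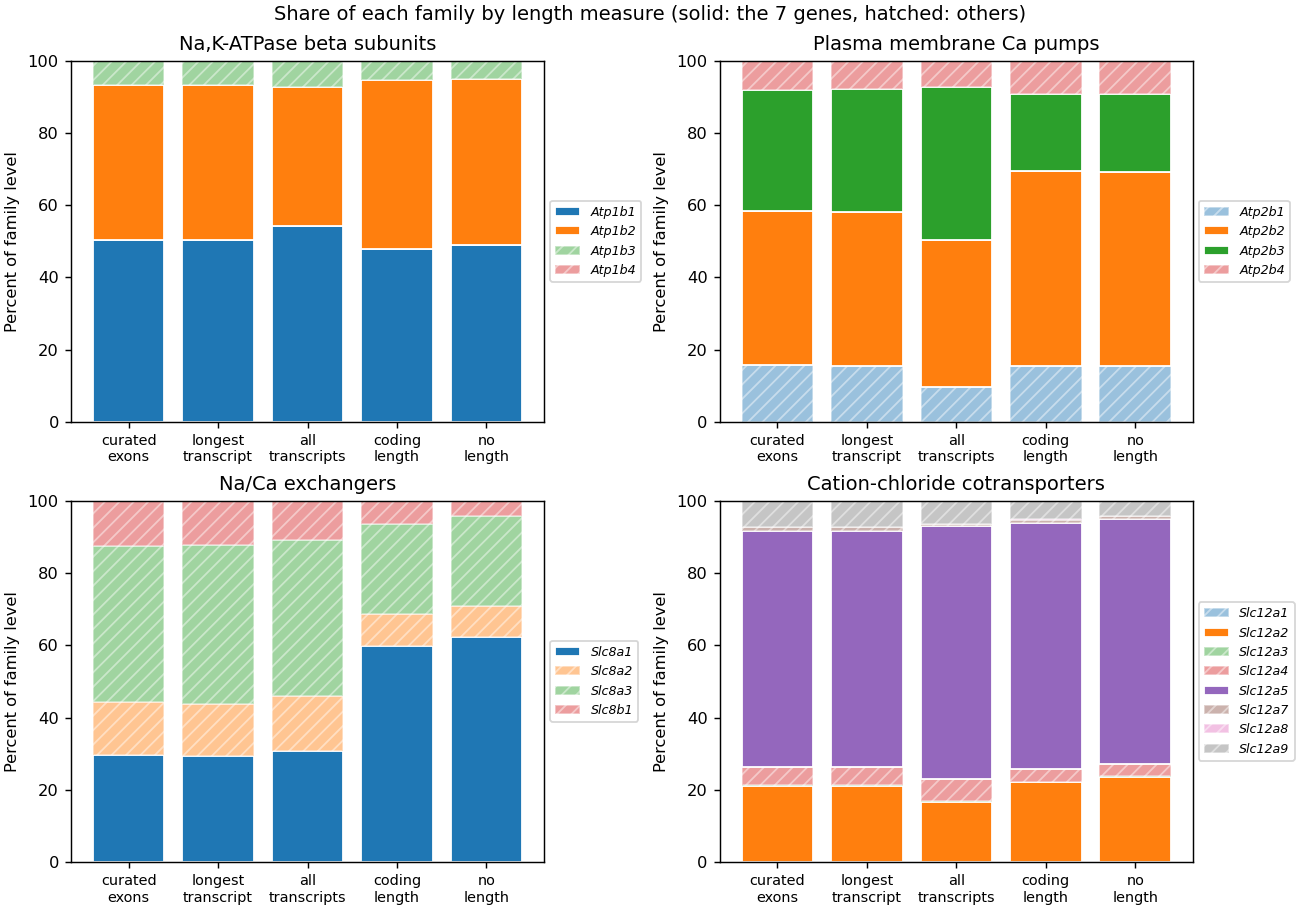
Stacked bars of the percent held by each gene of the summed level of the genes shown, for 4 families, with the level taken per kb of curated exons, of the longest curated transcript, of all transcripts or of coding sequence, or with no length; solid colours mark the 7 genes. *Slc8a1* grows from 29.7% to 62.4% of its family between the first and the last bar, and the *Atp1b1* and *Atp1b2* pair stays between 92.8% and 94.95%.

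*Slc12a5*, the gene of the chloride extruder KCC2 of neurons, was the third most abundant of the 7, with a base mean of 16958 (counting interval 16870 to 17046) and 2813 per kb. *Slc12a2*, the gene of the chloride loader NKCC1, which glia and several epithelia also express, had a base mean of 5886 (counting interval 5835 to 5938) and 903 per kb. The level of *Slc12a5* per kb was thus 3.12 times that of *Slc12a2* (counting interval 3.08 to 3.15). It was the higher gene under every length used, with ratios between 2.88 by base mean and 4.22 per kb of all transcripts. Their transcripts are alike in make-up, with 6028 bases for *Slc12a5* and 6520.0 for *Slc12a2*, and 55.5% coding in both. *Slc12a5* lies on chromosome 2 from 164960802 to 164999731 and has 26 exons, and *Slc12a2* lies on chromosome 18 from 57878678 to 57946821 and has 27 exons, both on the plus strand. Neither shared exon bases with another gene.

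Over 8 genes of the cation-chloride cotransporter family, *Slc12a5* held 65.5% of the summed level per kb, and together with *Slc12a2* it held 86.5%. *Slc12a4*, the gene of the potassium-chloride cotransporter KCC1, had 222 per kb, and the related *Slc12a7* (KCC4) had 38.6 per kb. *Slc12a9* had 305 per kb. The kidney transporters *Slc12a1* and *Slc12a3* had base means of 7.25 and 21.3, and *Slc12a8* had 23.7. The kinases listed as regulators of these transporters were led by *Wnk1* at 1134 per kb, and *Wnk4* was lowest at 62.7 per kb. *Wnk1* did not lead per kb of coding sequence, where *Oxsr1* held 29.9%, *Stk39* 29.1% and *Wnk1* 28.1% of their sum, nor per kb of all transcripts, where *Stk39* held 26.19% and *Wnk1* 26.03%.

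**Figure D4:**
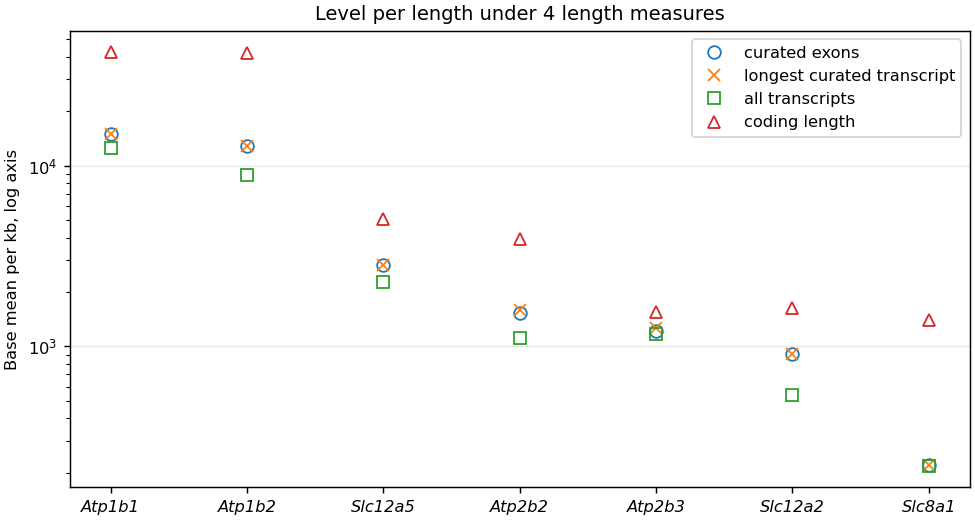
Base mean per kb of the 7 genes, on a log axis, under 4 ways to measure length (symbols). The coding length lifts *Slc8a1* from 219.8 to 1405 and leaves *Atp2b3*, whose transcript is 81.6% coding, nearest to its level per kb of curated exon (1552 against 1217).

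Little of the sequence of the 7 genes occurred in other transcripts. Windows of 100 bases, the read length of the study, were compared between the curated transcripts of each gene and all transcripts of other genes on both strands. For *Atp1b2*, *Atp2b2*, *Atp2b3*, *Slc12a2* and *Slc12a5*, 0 windows occurred in another gene. For *Atp1b1* 15.2% of 2481 windows did, all in *Nme7*, and for *Slc8a1* 1.06% of 18713 did, in the antisense gene. Of 47 genes of the pump, exchanger and cotransporter lists, with the lists of their regulators, partners and kinases, 46 were detected, and *Atp1b4* was the exception. Of all 25232 genes, 20973 had a base mean above 0, which is a lower bar than detection.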

How the data were processed

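The authors filtered reads with Fastp, aligned them to mm10 with HISAT2 (2.1.0 in the submitters' processing notes), used featureCounts (2.0.2) to count those that mapped uniquely to a gene, and compared the genotypes with DESeq2. The gene annotation and the strand setting are not given in the sources used here. The signal used is the base mean in the deposited table, which the authors computed as the mean over 10 libraries of counts divided by size factors. The other 5 columns hold the authors' own comparison (fold change, standard error, statistic, p-value, adjusted p-value) and were not used, so no test between genotypes was made.

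Here, base means were divided by exon length from GENCODE M21 (GRCm38). Curated transcripts are those paired with a RefSeq NM or NR entry. Symbols gave 1 annotated gene for 24310 of 25232 genes. Size factors came from the lowest recurring base means (at least 20 genes each). As a check of the code, the same step returned all 10 of 10 size factors, within 1 in 1000000, from simulated counts of 25232 genes. The simulation was built on 10 size factors, so this says nothing of the real values. Alternatives changed the length and the minimum base mean. Every length, the coding length too, divided the same whole base mean. Labels gave the groups. The genes named are the 7, the other genes of their families, and the highest and lowest per kb of the other lists; *Nme7* was added for its overlap. Some genes of the lists are not reported here. Genes and lists were chosen with earlier results of these data known. Protein sequences were not used here, so the planned protein identities were not computed. Python 3.11.15, numpy 2.4.6, pandas 2.3.3, scipy 1.17.1 and matplotlib 3.10.9 were used.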

Additional observations from a re-analysis of the deposited data

How the results depend on the processing

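The order of the 7 genes per kb was the same with the longest curated transcript, and 1 pair changed places with all transcripts (*Atp2b2* and *Atp2b3*), with coding length and with no length (*Atp2b3* and *Slc12a2* in both). The ratio of *Atp1b1* to *Atp1b2* was 1.42 with all transcripts, 1.02 with coding length and 1.07 with no length. That of *Atp2b2* to *Atp2b3* reversed to 0.949 with all transcripts and was 2.53 with coding length and 2.48 with no length. That of *Slc12a5* to *Slc12a2* was 4.22 with all transcripts and 2.88 with no length. *Atp1b1* over *Slc8a1*, compared after the data were seen, was 67.9, 57.9, 30.3 and 9.48 with the longest transcript, all transcripts, coding length and no length.

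Sums of families were compared under alternatives chosen after the data were seen. Plasma membrane over internal calcium pumps gave 0.687 with all transcripts and 0.877 with coding length, and reversed to 1.03 with no length. Plasma membrane pumps over sodium-calcium exchangers gave 4.94, 3.90, 3.09 and 4.01 with the longest transcript, all transcripts, coding length and no length. These changes follow from the lengths alone.

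Set against base means of 10 or more only, the 7 lay between percentiles 93.5 and 99.8 by base mean and between 57.0 and 99.9 per kb. With this minimum, 43 of the 47 listed genes were detected in place of 46, and at least 1 gave 46. Over all 25232 genes, 15918 had a base mean of 10 or more. The genes above 0.357 or at 1 or more were not counted over all genes. Grouping low values within 1 in 1000 gave 9 size factors in place of 10. The factors 1.07297 and 1.07353 lie within that tolerance of each other. No paired analysis was possible because the base mean is 1 value over all libraries, and for the same reason no library could be left out.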
